A study of Rattus norvegicus with 34 samples.

Results

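Ribosomal protein genes encode the proteins of the cytosolic ribosome, and 49 of them were followed in rat testis. They were taken as every probe set (a group of short probes that reads 1 transcript) whose only gene symbol in the platform annotation began with Rpl or Rps and a digit, or was Rplp0, Rplp1 or Rplp2, with the ribosomal S6 kinases left out. The rule found 54 probe sets of 31042, for 49 genes of the 14217 with a probe set of a single symbol. A further 30 probe sets carried a matching symbol together with other symbols and were not used. Where a gene had several probe sets, the one with the highest mean over all arrays stood for it.

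The RNA came from testes of Wistar Han rats whose exposure through the diet ran from gestation day 6 to postnatal day 92, with 1 Affymetrix rat array per animal. Control animals received 0 ppm (6 arrays). Myclobutanil was fed at 500 ppm (M500, 3 arrays) or 2000 ppm (M2000, 5 arrays), propiconazole at 500 ppm (P500, 4 arrays) or 2500 ppm (P2500, 5 arrays), and triadimefon at 500 ppm (T500, 4 arrays) or 1800 ppm (T1800, 4 arrays). The 3 compounds are triazole fungicides. Myclobutanil bears a nitrile group, propiconazole a dioxolane ring with a dichlorophenyl group, and triadimefon a ketone with a chlorophenoxy group.

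Each ribosome joins a small subunit, which decodes the mRNA, to a large subunit, which forms the peptide bond, and each subunit holds its own set of ribosomal proteins, most of them in a single copy. The mRNAs of these proteins begin with a run of pyrimidines, the 5′ terminal oligopyrimidine tract, through which mTOR signalling adjusts their translation together. In male germ cells the X chromosome is silenced during meiosis, and some X-linked ribosomal protein genes have autosomal paralogs that are expressed in the testis, of which the Rpl39-like gene is one.

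The letters around the annotated starts show where runs of C and T lie near the starts. A marked run need not be the tract itself. Those of Rps3, Rpl5 and Rps15a end before the start, outside the annotated mRNA. Windows of 30 bases, 15 before and 15 after the RefSeq start on GRCr8, were found for 40 of the 49 genes. The 8 windows below are of genes on which later results turn, and capitals mark the longest run of C and T in each, on the strand of the gene.
Rps23 (chr2:23814502-23814531, plus strand): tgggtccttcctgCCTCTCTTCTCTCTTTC
Rpl34 (chr2:221962269-221962298, minus strand): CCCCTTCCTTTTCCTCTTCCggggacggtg
Rps15a (chr1:181860270-181860299, minus strand): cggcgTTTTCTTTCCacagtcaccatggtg
Rpl5 (chr14:1995211-1995240, minus strand): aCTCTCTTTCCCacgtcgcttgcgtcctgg
Rps3 (chr1:163195762-163195791, minus strand): TTCCTTTCagcggcgcgcggcagcaagatg
Rpl35 (chr3:43165907-43165936, minus strand): cgCCCCTTCCTCTTTCTCTCgaaccgggcg
Rpl39 (chrX:121195882-121195911, minus strand): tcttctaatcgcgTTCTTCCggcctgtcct
Rpl39l1 (chr10:5966607-5966636, minus strand): actgccaggccgTCCCgctatcctggtgtg

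Within the windows, the runs of Rpl34 and Rpl35 spanned 20 and 18 letters, and that of Rps23 spanned 17. The runs of Rpl34 and Rps23 reach an edge of the window and may be longer. The X-linked Rpl39 had a run of 7 letters, and its paralog Rpl39l1, on chromosome 10, had one of 4. A run of at least 8 C or T letters lay in 23 of the 40 windows (57.5%), against 3124 of 27457 windows of the same length over all genes (11.4%). The median longest run was 8.5 letters in the ribosomal protein genes and 4 over all genes. These counts describe the windows around the annotated starts and not the tracts of the mRNAs, and no window was tested for use as a start site in testis.

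All values below are scores: the numbers deposited for each probe set, which behave like logarithms of unknown base, were quantile normalized so that the arrays share 1 distribution. A difference is therefore in score units, and no fold can be given. The score of a probe set depends on its probes as well as on the RNA, so its rank among probe sets is not a rank of mRNA abundance. The tissue label was checked against germ cell markers: the 11 measured of 12 spermatid genes had a mean score of 3.60 to 3.89 on every array. Liver transcripts stood out on 3 arrays: the 9 measured of 10 liver genes had a mean score of 1.74 to 1.77 on P2500 02, 03 and 04 and of -0.10 to 0.38 on the others, and albumin (Alb) scored 3.89 to 4.15 on those 3. Another array measure returns throughout: the actin gap. It is the difference between 2 control probe sets of beta-actin, 3′ end minus 5′ end, and is larger where less of the 5′ end of the RNA was labelled. It ran above 1.4 on 5 arrays, which were Control 02 (1.67), Control 06 (1.63), M500 04 (1.60), M2000 05 (1.47) and P2500 05 (1.47). It was largest next on P500 04 (1.33). In bulk testis, fewer cells of a type and less RNA per cell cannot be told apart.

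In the 6 Control testes the ribosomal protein genes gave some of the highest scores on the array. Their median Control mean was 2.39, which stood at the 98.0 percentile of the 31042 probe sets. By that ranking 13 genes were in the top 1%, 37 in the top 5% and 40 in the top 10%, and 6 genes were below the median of all probe sets. The levels were not evenly spread: 35 genes had a Control mean above 2, 5 lay between 1 and 2, and 9 lay below 1.

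**Figure D1:**
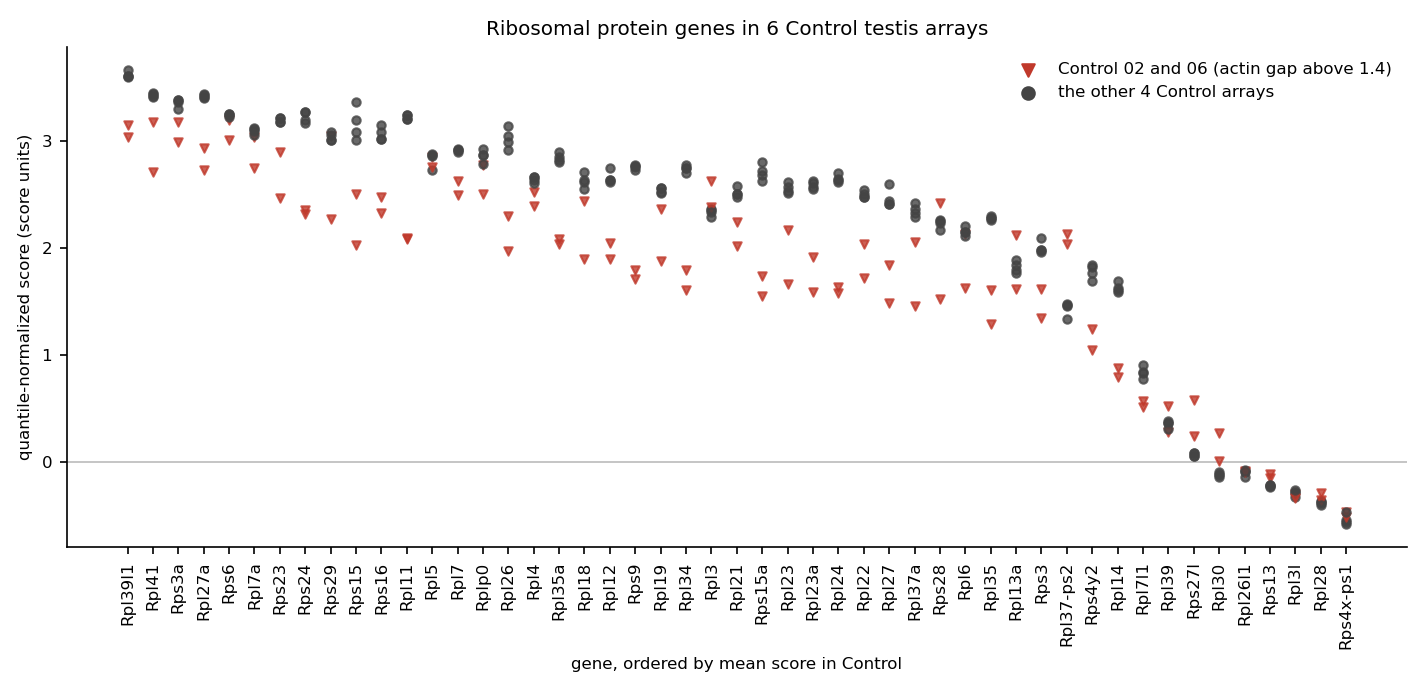
Quantile-normalized score (score units, vertical axis) of the 49 ribosomal protein genes (horizontal axis, ordered by mean) on each of the 6 Control arrays, with triangles for Control 02 and 06 and circles for the other 4. Scores fall from 3.44 for Rpl39l1 to -0.52 for Rps4x-ps1 by mean, and the triangles lie below the circles for most genes above a score of 1.

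Rpl39l1, the testis-expressed autosomal paralog of Rpl39, had the highest Control mean of the 49, at 3.44 ± 0.274 (SD, n = 6). Its Control scores were 3.03 and 3.15 on Control 02 and 06 and 3.59 to 3.66 on the other 4 arrays, with a median of 3.60. Rpl39 itself, which codes for one of the smallest proteins of the large subunit, scored from 0.28 to 0.52 with a median of 0.36. The 2 genes thus stood at the 99.8 and 71.6 percentiles, on different probes.

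The next 4 genes by Control mean were Rpl41 (3.26), Rps3a (3.26), Rpl27a (3.22) and Rps6, the small subunit protein phosphorylated by S6 kinase (3.19). Rpl41 and Rpl27a belong to the large subunit and Rps3a to the small one. Their neighbours in this order were not separated: the 5 highest means lay between 3.19 and 3.44, and the SD of single genes over Control ran up to 0.309 among them.

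The 5 lowest were Rps4x-ps1 (-0.52), Rpl28 (-0.36), the muscle paralog Rpl3l (-0.30), Rps13 (-0.19) and the paralog Rpl26l1 (-0.09). Rpl28 and Rps13, proteins of the large and the small subunit, were each read by 1 probe set, and the cause of their low scores was not tested. The other paralogs measured were Rpl7l1 (0.74), Rps27l, a gene induced by p53 (0.19), and Rps4y2 (1.57). Only 1 stalk protein was measured through a single-symbol probe set, Rplp0, which anchors the others (2.78 ± 0.149, SD, n = 6).

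Probe sets of the same gene differed widely. Rps24 scored 2.93 on one probe set and -0.20 on the other in Control, Rpl7 2.79 and 0.34, Rpl3 2.39 and 0.68, and Rpl14 1.36 and -0.11. The 2 probe sets of Rpl7l1 were the closest pair, at 0.74 and 0.53. By subunit, the median Control mean was 2.39 for the 28 genes of the large subunit, 2.85 for the 12 of the small subunit and 0.46 for the 6 paralogs, with Rplp0 and 2 pseudogene symbols outside these classes.

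The ribosomal protein genes varied more between the Control animals than most probe sets, and together. Their median SD over the 6 Control arrays was 0.295 score units, against 0.0637 over all probe sets and 0.159 over the 1071 probe sets with a Control mean above 2. Rpl11, a large subunit protein that binds Mdm2 when ribosome assembly fails, had the largest SD (0.586), followed by Rps15a (0.556), Rpl34 (0.541), Rpl24 (0.537) and Rps9 (0.518). The smallest belonged to genes of low score: Rpl26l1 (0.0236), Rpl3l (0.0275), Rpl28 (0.0391), Rps4x-ps1 (0.0483) and Rps13 (0.0489).

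Most of this spread lay in 2 Control arrays. Rpl11 scored 2.09 on Control 02 and 2.08 on Control 06, and 3.20 to 3.24 on the other 4. Rpl24 scored 1.58 and 1.64 on those arrays and 2.62 to 2.70 on the rest. Over the 4 Control arrays with an actin gap up to 1.4, the median SD of the ribosomal protein genes was 0.0359, close to the 0.0325 of all probe sets and the 0.0338 of probe sets above a score of 2.

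The other 3 arrays of large actin gap had the lowest median over the 49 genes within their groups. The median of the 49 genes was 2.12 on Control 02, 1.72 on Control 06, 2.35 on M500 04, 2.00 on M2000 05 and 2.12 on P2500 05, and P500 04, whose gap lay just under 1.4, had 1.98. The order by median was not that of the gap throughout, since P2500 02, with a gap of 1.15, had 2.33. Nor was every gene low on these arrays: on M500 04, Rps29 (3.20) and Rps28 (2.69) had their highest score of the group. In contrast, the 4 T1800 arrays lay between 2.62 and 2.66, and the 4 T500 arrays, with gaps of 0.70 to 0.87, between 2.53 and 2.80.

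**Figure D2:**
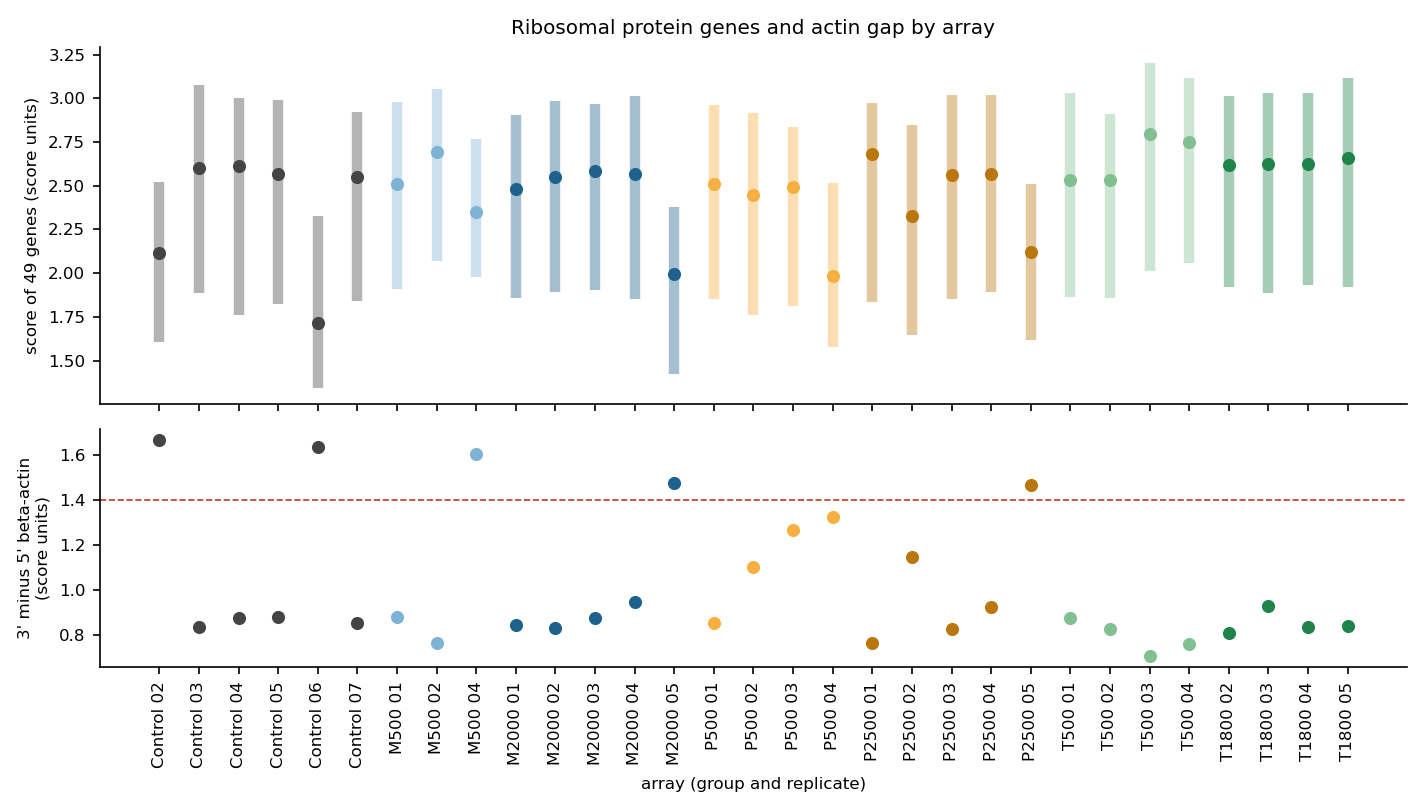
Upper panel: median (point) and middle 50% (bar) of the scores of the 49 ribosomal protein genes on each of the 31 arrays, by group and replicate; lower panel: actin gap of the same array (score units), with a dashed line at 1.4. The lowest medians, 1.72 on Control 06 and 1.98 on P500 04, coincide with gaps of 1.63 and 1.33.

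Across genes, the mean of the 5 arrays of large gap minus the mean of the other 26 had a median of -0.32 score units, with 38 of 49 genes lower (77.6%). Over all probe sets the median was -0.0023 and 51.1% were lower, and over the probe sets above a score of 2 it was 0.02 with 47.7% lower. For 16 genes the difference was below -0.5. The lowest values were those of Rpl24 (-0.85), Rps15a (-0.84), Rpl11 (-0.83) and Rpl34 (-0.80), which belong to both subunits.

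In 7 genes every large-gap array lay below every other array, a pattern seen in 4.18% of all probe sets. They were Rps9, Rpl12, Rpl7, Rps3, Rpl14, Rps4y2 and Rpl7l1. In 2 genes, Rpl37-ps2 and Rps13, every large-gap array lay above the rest, against 4.72% of all probe sets.

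A few genes of high score did not differ in this way. Rpl5, which carries 5S rRNA into the large subunit together with Rpl11, differed by 0.02 and ranged only from 2.73 to 3.10 over all 31 arrays, with its highest score on P500 04. Rpl3, near the peptidyl transferase centre, differed by 0.05, and Rpl13a, a large subunit protein also known for translational silencing in inflammation, by 0.18. Rpl37-ps2, a pseudogene symbol, went the other way by 0.63. It scored 2.13 and 2.03 on Control 02 and 06 and 1.33 to 1.48 on the other Control arrays.

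**Figure D3:**
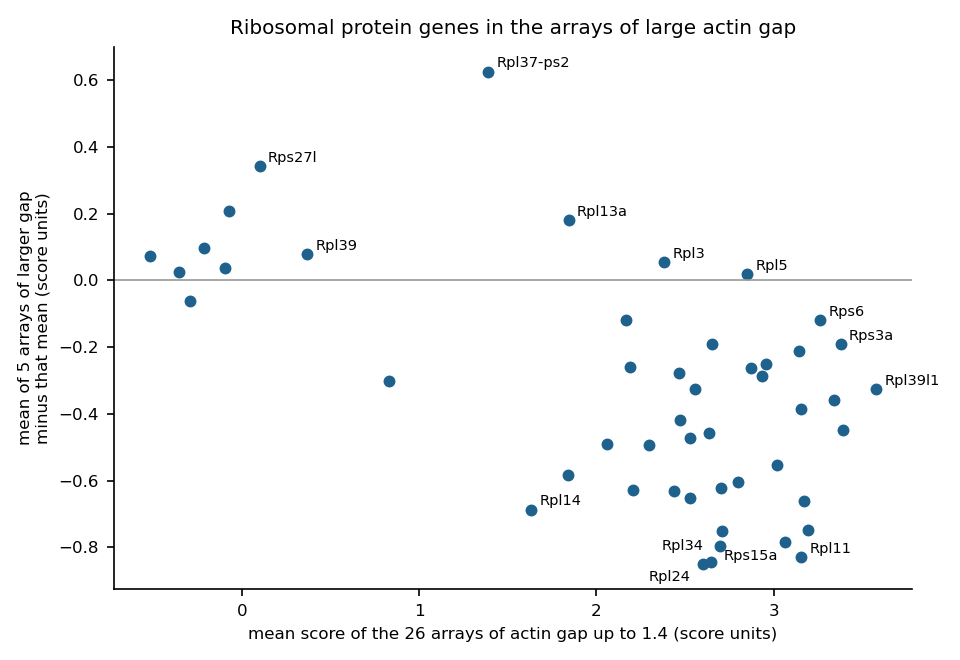
For each of the 49 genes (points), the mean score of the 5 arrays with an actin gap above 1.4 minus the mean of the other 26 (vertical axis, score units) against the mean of those 26 (horizontal axis, score units). Most genes above a score of 2 lie below 0, down to -0.85 for Rpl24, whereas Rpl5 and Rpl3 lie near 0 and Rpl37-ps2 at 0.63.

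The part of the actin gap in the group differences below was not tested beyond the values given beside each. Control held 2 arrays of large gap and T500 and T1800 none, and the mean gap was 1.12 in Control, 0.79 in T500 and 0.85 in T1800.

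In the triadimefon group at 500 ppm most ribosomal protein genes had a higher mean score than in Control, and no gene passed the test. In T500, 44 of 49 genes had a higher mean and 5 a lower one, with a median difference of 0.24 score units (median SE 0.145), against 48.9% of all probe sets with a higher mean and a median of -0.0012. With the replicate number as a block, the median was 0.085 with 43 genes higher. The labels give no pairing of animals, though same-numbered arrays of T500 and Control deviated together in all 3 pairs (correlations 0.15 to 0.19). None of the 49 was called by limma at an adjusted p under 0.05 (0% of all probe sets were), and the smallest adjusted p was 0.521. At an unadjusted p under 0.05, 13 genes were higher and 1 lower, which is 26.5% and 2.04% of the genes where 4.04% and 3.58% of all probe sets did so.

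Rps3, a small subunit protein at the mRNA entry channel, scored 2.11, 2.14, 2.29 and 2.28 on the T500 arrays. In Control it scored 1.35 to 2.09 with a median of 1.97, the lowest on Control 06 and the next, 1.61, on Control 02. All T500 arrays lay above all Control arrays, though the highest Control array (2.09) was just below the lowest T500 array (2.11). The difference was 0.38 (SE 0.121; limma adjusted p = 0.539).

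Rpl7, a large subunit protein, scored 2.97, 2.91, 3.15 and 3.12 in T500 and 2.49 to 2.92 in Control, with a median of 2.90. The groups overlapped, and the difference of means was 0.24 (SE 0.074; limma adjusted p = 0.521). Rps6 differed by 0.13 and Rpl37-ps2 by -0.39. Besides Rps3, Rpl6 and Rpl7a had no overlap between T500 and Control, so that 3 genes were wholly above Control where 0.731% of all probe sets were. T500 03 and 04 had gene medians of 2.80 and 2.75, above the 2.53 of both T500 01 and 02.

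At 1800 ppm of triadimefon the replicates were tighter (SD of the gene median 0.0184, n = 4, against 0.141 in T500). The median difference from Control was 0.19, with 42 genes higher and 7 lower, where 47.1% of all probe sets were higher. On the scores as deposited the split was 27 higher and 22 lower, with a median of 0.07. None was called (0.00644% of all probe sets were, or 2), and the smallest limma adjusted p was 0.767. At an unadjusted p under 0.05, 8 genes were higher and 0 lower, against 3.5% and 2.35% of all probe sets.

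Rpl7a, a large subunit protein, scored 3.25, 3.13, 3.27 and 3.18 in T1800 and 2.75 to 3.12 in Control, with a median of 3.07, so that the groups did not overlap. Its difference was 0.18 (SE 0.062; limma adjusted p = 0.767). Rps3 scored 2.19, 2.10, 2.16 and 2.19, again above every Control array, with a difference of 0.33, and Rpl7 differed by 0.19. In all, 8 genes lay wholly above Control (Rpl6, Rpl7, Rpl7a, Rpl19, Rpl24, Rpl27a, Rps3 and Rps23), where 1.13% of all probe sets did.

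The size of these differences rested on the 2 Control arrays of large gap. With the 5 large-gap arrays left out, the median difference was 0.06 for T500 (45 higher, 4 lower) and 0.04 for T1800 (41 higher, 8 lower). By limma 0 genes were called, against 0.00644% and 0% of all probe sets. At an unadjusted p under 0.05, 10 genes were higher and 1 lower in T500 (3.74% and 3.94% of all probe sets), and 4 were higher and 0 lower in T1800 (3.6% and 2.46%). Rps3 kept a difference of 0.20 (SE 0.043; limma adjusted p = 0.135) in T500 and 0.16 in T1800 (adjusted p = 0.407). Rpl11, by contrast, went from 0.41 to 0.03 in T500 and from 0.39 to 0.02 in T1800, and Rpl24 from 0.45 to 0.10 and from 0.42 to 0.07. With the actin gap as a covariate the medians were 0.04 and 0.06.

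**Figure D4:**
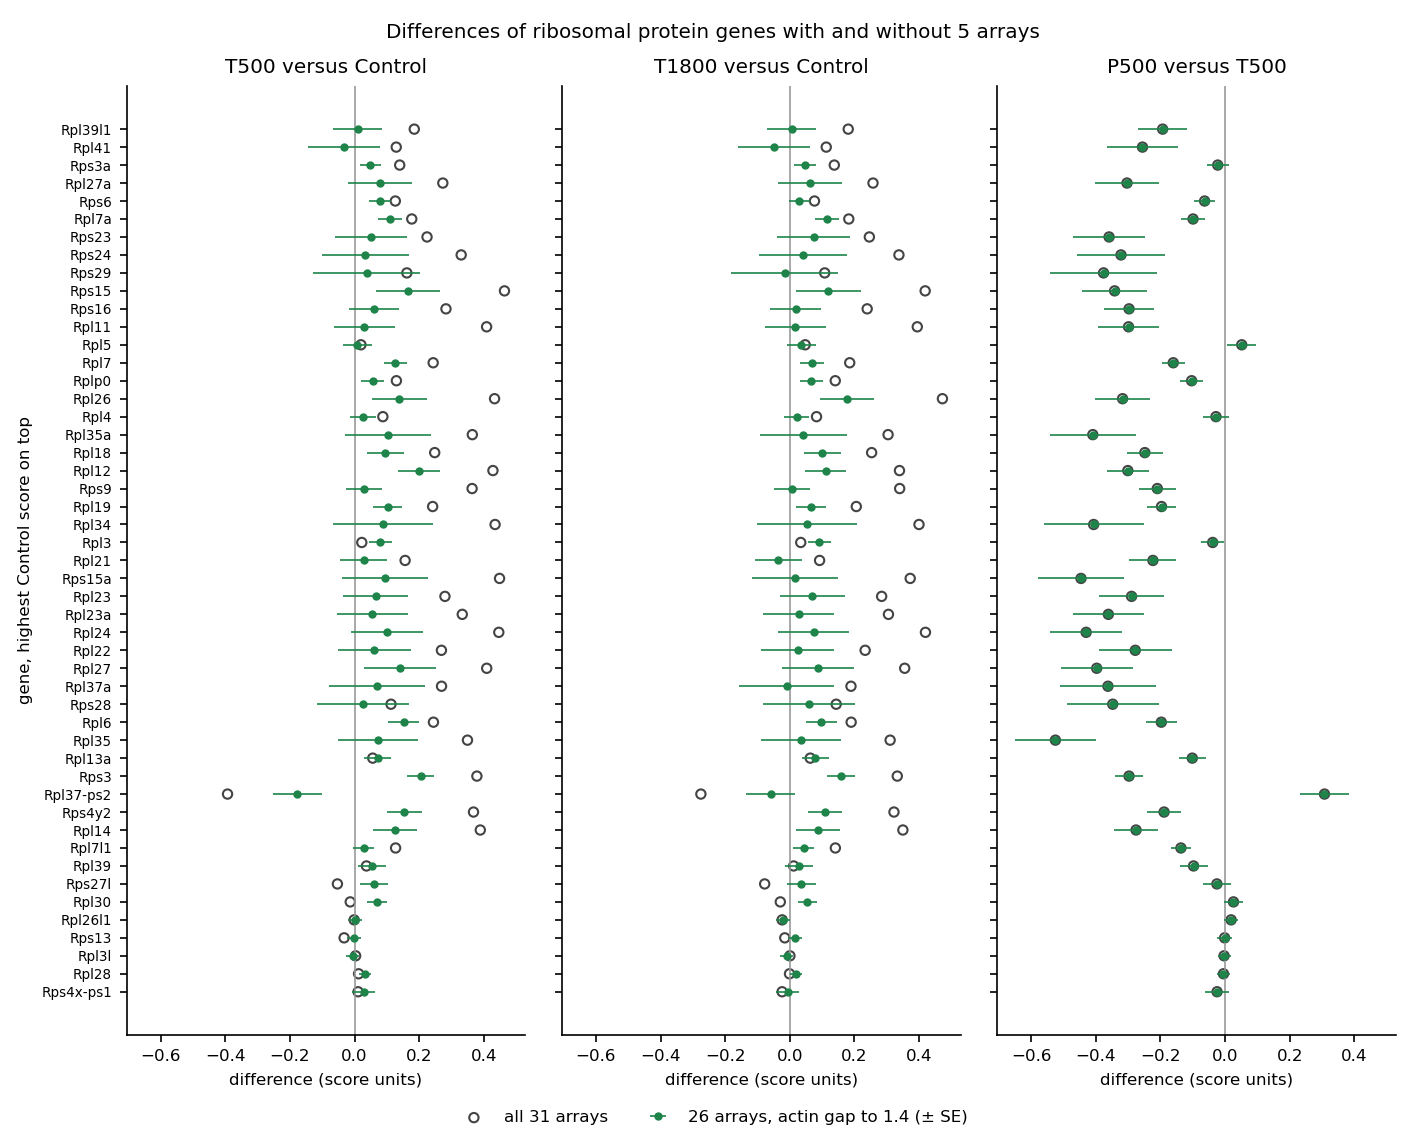
Differences in score units of the 49 genes (vertical axis, highest Control score on top) for T500 versus Control, T1800 versus Control and P500 versus T500, from all 31 arrays (open circles) and from the 26 arrays with an actin gap up to 1.4 (filled, with ± 1 SE). For T500 versus Control most circles lie to the right of the filled points, with medians of 0.24 and 0.06. For P500 versus T500 both must coincide, at a median of -0.22, because no array left out belongs to either group.

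Among markers of other cells, some lists had higher scores in the triadimefon groups and others did not. The 7 fibroblast and matrix genes had a mean score of 0.30 to 0.61 over Control arrays, 0.49 to 0.86 in T500 and 0.72 to 0.83 in T1800, and 5 of the 7 were higher in each. The 2 measured of 4 erythrocyte genes ran from 0.55 to 1.06, 1.16 to 1.42 and 1.15 to 1.27. The 11 spermatid genes overlapped between the groups, at 3.60 to 3.87, 3.85 to 3.87 and 3.86 to 3.88. In T500 and T1800, 0 of the 6 measured spermatocyte genes and 0 of the 3 endothelial genes had a higher mean than in Control. Sertoli genes were higher for 2 and 4 of 8, spermatogonial genes for 7 and 4 of 7, and peritubular genes for 3 of 6 in both. Leydig genes were higher for 6 of 8 and macrophage genes for 4 of 7 in both. No gene of these lists was called, and the part of these cells in the ribosomal protein scores was not tested.

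For T1800, animals came from 2 ranges of animal numbers, and the comparison could be made within each. The median difference was 0.15 among the lower numbers (1 T1800 and 3 Control arrays) and 0.29 among the higher ones (3 and 3 arrays). Each range held 1 Control array of large gap, Control 02 and Control 06. Among the lower numbers the gene median was 2.62 on the T1800 array, and 2.60 and 2.61 on the other 2 Control arrays. Among the higher numbers it was 2.62 to 2.66 on T1800 arrays, and 2.57 and 2.55 on the other 2 Control arrays. All M500, M2000, P500, P2500 and T500 arrays were of lower numbers, where Control held 3 arrays of each range. The part of the range in those comparisons with Control was not tested.

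In the myclobutanil and propiconazole groups the median differences of the ribosomal protein genes from Control lay between 0.0028 and 0.13, and no gene passed the test. In M500 the median difference was 0.13, with 44 genes higher and 5 lower (50.1% of all probe sets were higher), and 0 were called (0% of all probe sets; smallest limma adjusted p 0.536). Rps6 scored 3.29, 3.37 and 3.20 in M500 and 3.00 to 3.25 in Control, with a median of 3.23. The groups overlapped, and the difference was 0.10 (SE 0.047). One gene was higher and one lower at an unadjusted p under 0.05, Rps6 and Rpl3l, which is 2.04% each of the genes and less than the 4.85% and 4.15% of all probe sets.

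In M2000 the median difference was 0.05, with 38 genes higher and 11 lower, where 49.9% of all probe sets were higher. In P2500 it was 0.05 with 45 higher and 4 lower (45% of all probe sets higher), and in P500 it was 0.0028, with 26 higher and 23 lower (51% higher). Beside this, 9 of 9 liver genes were higher in P2500 at an unadjusted p under 0.05, with a median difference of 0.83. Without the 3 arrays of high Alb, which leaves P2500 01 and 05, the P2500 median of the ribosomal protein genes was 0.01, with 28 genes higher and 21 lower. By limma no gene was called in any of the 3 comparisons (0% of all probe sets in each), and 0 had an unadjusted p under 0.05. Over all probe sets, 0.934% were higher and 0.767% lower at that p in M2000, 2.41% and 1.74% in P2500, and 2.07% and 1.28% in P500. Among the higher genes, the smallest p was that of Rps4y2 in M2000 (a difference of 0.21), Rps3a in P2500 (0.07) and Rps3a in P500 (0.12). Each had a limma adjusted p that rounds to 1. These were not always the largest differences, which reached 0.25 in P2500 and -0.23 in P500. In these data 2 arrays, M2000 05 and P2500 05, were the low ones of their groups, and the other 4 of each had gene medians of 2.48 to 2.59 and 2.33 to 2.68.

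The split of genes into higher and lower depended on the scaling in these groups. On the scores as deposited, whose arrays differ in spread, 5 genes were higher and 44 lower in M2000, 6 and 43 in P500, and 19 and 30 in P2500, with medians of -0.14, -0.11 and -0.04. M500 had 48 higher with a median of 0.59, and T500 42 higher with 0.21. Without the 5 large-gap arrays the medians were 0.02 in M500, -0.01 in M2000, -0.15 in P500 and -0.03 in P2500. The sign of the small differences in M2000, P500 and P2500 was therefore not settled by these arrays.

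The 3 compounds could be set against each other at the shared dose of 500 ppm, in 3 pairs. On the quantile-normalized scores the widest median difference was between propiconazole and triadimefon. On the scores as deposited it was between myclobutanil and propiconazole, at 0.745 against -0.34 for propiconazole and triadimefon. The highest deposited score was 8.39 on M500 04, and 5.03 and 4.71 on M500 01 and 02. It was 4.06 to 4.64 on P500 arrays and 4.19 to 5.28 on T500 arrays. The part of M500 04 in the deposited medians was not tested. In P500 45 of 49 genes had a lower mean than in T500 and 4 a higher one, with a median difference of -0.22 (median SE 0.158), where 51.7% of all probe sets were higher. None was called (0% of all probe sets), with a smallest limma adjusted p of 0.888. At an unadjusted p under 0.05, 4 genes were lower (8.16% of the genes, 2.07% of all probe sets) and 0 higher (3% of all probe sets).

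Rpl35, a large subunit protein at the exit of the peptide tunnel, averaged 1.83 ± 0.344 (SD, n = 4) in P500 and 2.35 ± 0.184 (SD, n = 4) in T500, and the arrays of the 2 groups did not overlap. Its difference was -0.52 with a 95% interval of -0.98 to -0.07 (limma). This interval and those below are not adjusted for the number of probe sets tested, and the smallest limma adjusted p was 0.888. Rps3 scored 1.95, 1.82, 1.88 and 1.98 in P500 and 2.11 to 2.29 in T500, again without overlap, and its interval was -0.57 to -0.03. Rps23, a small subunit protein at the decoding centre, scored 3.11, 2.98, 3.10 and 2.35 in P500 and 3.18, 3.10, 3.32 and 3.39 in T500, and its interval was -0.71 to -0.01. Among P500 arrays, the low one for Rps23 was P500 04.

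Between P500 and T500, 13 genes were wholly lower, where 3.16% of all probe sets were, and Rpl37-ps2 was wholly higher, where 4.07% were. When the 5 large-gap arrays were left out, none of which belongs to P500 or T500, the differences stayed as they were and the shared spread shrank, the median SE going from 0.158 to 0.064. Then 12 genes were called lower (1.2% of all probe sets) and Rpl37-ps2 higher (0.979%) in P500, which is 13 of 49 where 2.18% of all probe sets were called (676). Rps3 had the smallest limma adjusted p (0.0038), followed by Rpl12, Rpl7, Rpl18, Rpl19 and others, and Rpl35 had 0.033. The fit restricted to P500 and T500 called none of the 49.

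Most of the 13 calls were lost at an actin gap limit of 1.3, which was chosen after seeing the data. Whether that rested on the scores of P500 04 or on the smaller P500 group was not tested. Without the arrays of an actin gap above 1.3, which also leaves out P500 04, 1 gene was called, where 0.139% of all probe sets were: Rps3, at -0.32 (SE 0.045; limma adjusted p = 0.0075), and the median difference was -0.15 with 46 genes lower. The actin gap averaged 1.14 in P500 and 0.79 in T500, and with it as a covariate the median difference was -0.03. The 7 fibroblast and matrix genes averaged 0.27 to 0.47 over P500 arrays and 0.49 to 0.86 over T500 arrays. The part of RNA quality and of other cells in this contrast was not tested.

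Myclobutanil and propiconazole at 500 ppm differed by a median of 0.11, with 39 genes higher in M500 and 10 lower (49.7% of all probe sets higher), and none called (0% of all probe sets; smallest limma adjusted p 0.653). At an unadjusted p under 0.05, 1 gene was higher and 0 lower, against 3.62% and 3.86% of all probe sets. On the scores as deposited the median was 0.745, with 48 genes higher. Rps23 was the 1 gene without overlap, at 3.17, 3.27 and 3.23 in M500, where 2.86% of all probe sets were wholly higher, and its interval was -0.04 to 0.71. Without the arrays of a gap above 1.3, Rps3 alone was called (0.0483% of all probe sets), at 0.30 (SE 0.053; limma adjusted p = 0.031). That limit was chosen after seeing the data, and it leaves only M500 01 and 02 against P500 01, 02 and 03.

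M500 was lower than T500 by a median of -0.09, with 11 genes higher and 38 lower (51.2% of all probe sets higher), and none called (0% of all probe sets; smallest limma adjusted p 0.733). At an unadjusted p under 0.05, 0 genes were higher or lower, against 3.49% and 3.21% of all probe sets. On the scores as deposited 46 genes were higher in M500, with a median of 0.35, so that this direction turned with the scaling. The 95% interval held 0 for 45 of the 49 genes in P500 versus T500, 48 in M500 versus P500 and 49 in M500 versus T500, with median half-widths of 0.33, 0.35 and 0.35 score units. These half-widths rest on a spread shared by all 31 arrays, and a p above the threshold does not show that the compounds act alike.

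The high doses were not the same for the 3 compounds, and their values are given side by side only. The median of the 49 genes averaged 2.44 ± 0.249 (SD, n = 5) in M2000, 2.45 ± 0.225 (n = 5) in P2500 and 2.63 ± 0.0184 (n = 4) in T1800, with 2.36 ± 0.368 (n = 6) in Control. At 500 ppm it was 2.52 ± 0.172 (n = 3) in M500, 2.36 ± 0.2501 (n = 4) in P500 and 2.65 ± 0.141 (n = 4) in T500. All comparisons with Control share the same 6 Control arrays.

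Among other genes of translation were 73 mitochondrial ribosomal protein genes, whose ribosomes serve the mitochondrial genome. Most of them had a higher mean than in Control in every exposed group. Of these, 65 were higher in T500 and 65 in T1800, with medians of 0.13 and 0.11. In M500 67 were higher (median 0.10), and 60 were in each of M2000, P500 and P2500 (medians 0.03, 0.04 and 0.04). In T500 35 and in T1800 17 were higher at an unadjusted p under 0.05, where 4.04% and 3.5% of all probe sets were. In M500 16 were, where 4.85% of all probe sets were. Their mean score was 0.868 on Control 02 and 0.755 on Control 06, against 1.05 to 1.11 on the other 4 Control arrays. In T500 and T1800 the 49 initiation factor genes had medians of -0.02 and -0.01. The 7 elongation factor genes had 0.02 and 0.03, and 30 ribosome biogenesis genes -0.02 and -0.02.

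Of 8 listed mRNAs with a terminal pyrimidine tract outside the ribosome, 5 were measured, with medians of -0.0018 in T500 and 0.0038 in T1800. Of 4 ribosomal proteins whose symbols lie outside the pattern, the 2 measured had medians of 0.18 and 0.19. No gene of these lists was called by limma in any of the 9 comparisons.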

How the data were processed

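Testis RNA of 34 rats was labelled, and 31 arrays held values. The authors deposited 1 log-like score for each probe set and array. The steps by which they made these scores are not given in the sources used here. Per the labels' protocols, RNA was copied from an oligo-dT primer. The planned design assumed log values used as deposited. Since arrays differed in spread, they were quantile normalized, and the deposited scores became an alternative. A group-mean model over all 31 arrays (limma 3.58.1, R 4.3.3, checked on simulated data) gave Benjamini-Hochberg adjusted p-values over 31042 probe sets for 9 contrasts, with 0.05 as the threshold. The simulated noise was independent and, for each probe set, of equal size on all arrays. It held no shared shift like that of the large-gap arrays. Litters were not given, so p-values measure the spread between these animals.

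Genes named were the 5 highest and 5 lowest in Control, the 5 of largest and smallest SD, those with the largest gap between probe sets, a list always taken (the stalk, paralogs and their parents, and Rpl5, Rpl11, Rpl13a, Rpl22, Rpl26, Rps3, Rps6 and similar), and per contrast the genes called or the 3 of smallest p in each direction; the others were chosen after their values were seen. The members and lists were chosen with earlier results of these data known. Symbols came from the platform annotation, which can be old, and start sequences from RefSeq on GRCr8. Among the comparisons with Control, same-numbered animals deviated together in every pair only for T500 (3 pairs, correlations 0.15 to 0.19). The correlations were also all positive in M500 versus P500 (3 pairs, 0.08 to 0.48). The labels give no pairing.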

Additional observations from a re-analysis of the deposited data

Results flagged for a closer look

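In groups of 4 to 6 arrays, 30 values (the median of the 49 genes and 29 named genes) were checked for 1 array far from the rest of its group, in 180 checks. A sample stood apart in 44 of them. Chance gives about 1 in 20 for a single check, but the genes vary together on the same arrays, so the 44 are not separate events. M2000 05 lay below the rest of its group for the gene median (2.00), Rpl7a (2.96), Rps23 (2.42), Rpl11 (2.26), Rpl26 (2.35), Rps29 (2.24), Rpl7 (2.62), Rplp0 (2.68), Rpl22 (1.88), Rps28 (1.505), Rpl35 (1.36), Rps4y2 (1.42), Rpl7l1 (0.55) and Rpl3l (-0.36) and above it for Rpl37-ps2 (1.91) and Rpl30 (0.024). P2500 05 lay below the rest of its group for Rpl26 (2.18), Rpl7 (2.71), Rplp0 (2.53), Rpl6 (1.81), Rps3 (1.58) and Rpl3l (-0.35) and above it for Rps27l (0.59). Control 06 lay below the rest of its group for Rps6 (3.00), Rpl7a (2.75), Rps29 (2.27), Rplp0 (2.50), Rps28 (1.52) and Rpl6 (1.62).

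P500 04 lay below the rest of its group for the gene median (1.98), Rpl11 (2.52), Rpl26 (2.45) and Rpl22 (1.83) and above it for Rpl5 (3.10) and Rpl37-ps2 (1.88). Control 02 lay above the rest of its group for Rpl3 (2.63), Rps27l (0.58) and Rpl30 (0.27). T1800 05 lay above the rest of its group for the gene median (2.66) and Rpl11 (3.30). Control 04 lay below the rest of its group for Rpl26l1 (-0.14). T1800 02 lay below the rest of its group for Rps28 (2.17). T1800 03 lay below the rest of its group for Rps4y2 (1.79). T500 03 lay above the rest of its group for Rpl13a (1.99). Of the 44 values, 32 were on the 4 arrays Control 02, Control 06, M2000 05 and P2500 05, whose actin gap was above 1.4. No gene of 29 had all arrays of one 500 ppm group above the Control mean and all of another below it, in 87 such checks.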

How the results depend on the processing

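Counts of called ribosomal protein genes stayed at 0 in all 9 comparisons under every alternative except those named here. With array weights 1 gene was called in T1800 versus Control (Rpl7a) and 1 in P500 versus T500 (Rps3). Without the arrays of an actin gap above 1.4, 13 were called in P500 versus T500. Without those above 1.3, chosen after seeing the data, 1 was called in P500 versus T500 and 1 in M500 versus P500. The fit restricted to the groups compared called 0 in P500 versus T500.

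On the scores as deposited, and with array medians subtracted from them, the median difference was 0.591 and 0.571 in M500 versus Control, 0.745 and 0.719 in M500 versus P500, and 0.352 and 0.336 in M500 versus T500. The base and gain of the scores are unknown. M500 04 had the highest deposited maximum of all arrays (8.39), followed by Control 02 (8.21), and the cause was not tested.

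Leaving out 1 array at a time called 0 genes in each comparison. The median difference then ran from 0.040 to 0.195 (M500), -0.027 to 0.130 (M2000), -0.044 to 0.056 (P500), -0.016 to 0.120 (P2500), 0.130 to 0.273 (T500) and 0.118 to 0.225 (T1800) against Control. It ran from -0.264 to -0.147 for P500 versus T500, 0.037 to 0.173 for M500 versus P500 and -0.148 to -0.028 for M500 versus T500.

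With the replicate number as a block, 0 genes were called in every comparison. The median difference was 0.085 in T500 versus Control, where same-numbered arrays deviated together in every pair, and Rps27l there was 0.0041. The median difference was 0.024 (M500), -0.029 (M2000), -0.077 (P500), -0.021 (P2500) and 0.125 (T1800) against Control, where same-numbered arrays did not do so in every pair.

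Single genes with other sign than in the fit reported, none called on either side, were as follows. On deposited and on median-subtracted scores they lay in M500 versus Control (Rpl37-ps2 0.112 and 0.092, Rpl4 0.398 and 0.379), M2000 versus Control (Rps3a -0.266 and -0.257, Rps3 -0.035 and -0.027), P500 versus Control (Rps3a -0.144 and -0.138, Rpl5 -0.155 and -0.149, Rps6 -0.205 and -0.199), P2500 versus Control (Rps3a -0.15 and -0.149), T1800 versus Control (Rpl7a -0.011 and -0.00072), P500 versus T500 (Rpl5 -0.138 and -0.129), M500 versus P500 (Rpl4 0.509 and 0.483, Rpl5 0.789 and 0.763) and M500 versus T500 (Rpl6 0.211 and 0.194, Rps3 0.053 and 0.036). With array weights they lay in M500 versus Control (Rpl4 0.065), M2000 versus Control (Rps27l 0.0032), P2500 versus Control (Rps3a -0.0011, Rpl3 0.021), T500 versus Control (Rps27l 0.037), T1800 versus Control (Rps27l 0.0195) and M500 versus P500 (Rpl4 0.103). Without the arrays of a gap above 1.4 they lay in M500 versus Control (Rpl4 0.071), M2000 versus Control (Rps27l 0.0032), P2500 versus Control (Rps3a -0.0053, Rpl3 0.045), T500 versus Control (Rps27l 0.0600), T1800 versus Control (Rps27l 0.035) and M500 versus P500 (Rpl4 0.073). Without those above 1.3 they lay in M500 versus Control (Rpl4 0.071), M2000 versus Control (Rps27l 0.0032), P500 versus Control (Rpl5 -0.0091), P2500 versus Control (Rps3a -0.0053, Rpl3 0.045), T500 versus Control (Rps27l 0.0600), T1800 versus Control (Rps27l 0.035), P500 versus T500 (Rpl5 -0.017) and M500 versus P500 (Rpl39 -0.012, Rpl4 0.125, Rpl5 0.000203). Without the arrays with an Alb score above 3 they lay in P2500 versus Control (Rpl26 -0.0204, Rpl37-ps2 0.019, Rpl30 0.028). With the actin gap as a covariate they lay in T500 versus Control (Rps13 0.0081, Rps27l 0.092), T1800 versus Control (Rps27l 0.041) and P500 versus T500 (Rpl26l1 -0.000197). With 1 array left out at a time they ranged in M500 versus Control (Rpl4 -0.119 to 0.132, Rpl37-ps2 -0.352 to 0.026), M2000 versus Control (Rpl30 -0.085 to 0.0021, Rps27l -0.11 to 0.0084), P2500 versus Control (Rpl30 -0.087 to 0.0202, Rpl3 -0.043 to 0.026), T500 versus Control (Rps27l -0.097 to 0.026), T1800 versus Control (Rps27l -0.103 to 0.00088), P500 versus T500 (Rpl5 -0.017 to 0.079) and M500 versus P500 (Rpl4 -0.178 to 0.073, Rpl5 -0.069 to 0.032). The number of arrays per group limits the precision, and litters were not given. No other alternative tried (a filter on low scores, all probe sets, pseudogene symbols left out, the animal number range as a block) moved a count, and the medians moved by less than the spread between arrays.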
